A study of Mus musculus with 45 samples.

Results

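The set described here is a list of 40 genes of DNA replication and mitosis, 15 of replication and 25 of mitosis, of which 39 were measured among 18193 genes. Each gene is represented by its probe set with the highest mean over the 45 arrays; Ccnb1, a mitotic cyclin, was not analysed here. The values are log2 signals of Affymetrix mouse 3' arrays, on which a difference of 1 is a doubling. The samples were male murine embryonic stem cells (ESCs) of strain 129 and embryoid bodies (EBs), balls of cells that form and differentiate from ESCs, grown in hanging drops and collected at day 4, 8, 12 and 16. The 3 lines were one labelled Strip2 silenced (KD), one carrying a scrambled control (SCR), and the wild type (WT). Each line was sampled as ESCs and on the 4 EB days, which makes 15 groups of 3 arrays. The labels do not say whether the KD line is a single clone or whether a group's 3 arrays hold RNA of independent cultures; the p-values therefore cover only the spread between arrays, which may be technical.

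Strip2, the targeted gene, codes for a scaffold protein of phosphatase complexes. Its signal was low in every group, and it was 2.66 to 2.77 in KD ESCs against 2.82 to 2.86 in SCR ESCs and 2.50 to 3.0 in WT ESCs. At day 16 it was 3.01, 3.41 and 3.43 in KD EBs, against 4.54, 4.40 and 5.60 in SCR EBs and 3.0, 3.12 and 2.52 in WT EBs. KD EBs were thus below SCR EBs at day 16 (log2 difference -1.56 ± 0.19, SE; limma, adjusted p = 8.6e-09) but not below WT EBs (0.40 ± 0.19, adjusted p = 0.07), so the line is called KD-labelled below. SCR EBs were themselves above WT EBs at day 16 (1.97 ± 0.19, adjusted p = 1.3e-09). At day 12 KD EBs were below SCR EBs (-0.92) and called above WT EBs (0.63, adjusted p = 0.0061). Over all probe sets, arrays of the same group correlated with r of 0.9888 to 0.9961.

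A dividing cell first licenses its replication origins by loading the MCM2-7 helicase with the help of Cdc6 and Cdt1, which geminin (Gmnn) restrains, and then copies its DNA with the sliding clamp Pcna and nucleotides from ribonucleotide reductase. In mitosis, Cdk1 with cyclins A and B, the Aurora kinases and Plk1 drive entry, kinesins build the spindle, the checkpoint proteins Bub1, Bub1b, Mad2l1 and Ttk watch the kinetochores, and Cdc20 and separase (Espl1) release the sister chromatids. Murine ESCs cycle fast with short gap phases, and many of their descendants in EBs slow down or leave the cycle as they differentiate. Replication genes are classically controlled by E2F factors, and mitosis genes by the MuvB complex through an element called CHR and by NF-Y through CCAAT boxes.

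Promoters are shown for 8 members on which the results turn: Mcm3 and Mcm5 (replication, higher in KD-labelled EBs), Rrm1 (replication, not higher), Espl1, Bub1 and Kif11 (mitosis, higher), and Nuf2 and Mki67 (mitosis, not higher and lower). Each runs 5′ to 3′ over the 160 bases before and the 30 bases after the annotated start in the RefSeq table of GRCm38.p6, and capitals mark matches to the motifs searched.
Mcm3, chr1:20820283-20820472, minus strand: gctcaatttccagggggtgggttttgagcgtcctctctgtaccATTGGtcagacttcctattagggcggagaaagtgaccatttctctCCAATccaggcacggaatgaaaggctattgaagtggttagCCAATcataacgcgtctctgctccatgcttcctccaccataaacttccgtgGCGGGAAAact
Mcm5, chr8:75109349-75109538, plus strand: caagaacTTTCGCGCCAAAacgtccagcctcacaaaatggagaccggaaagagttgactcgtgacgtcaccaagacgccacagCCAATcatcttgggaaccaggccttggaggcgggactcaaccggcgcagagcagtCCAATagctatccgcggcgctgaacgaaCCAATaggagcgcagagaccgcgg
Rrm1, chr7:102441535-102441724, plus strand: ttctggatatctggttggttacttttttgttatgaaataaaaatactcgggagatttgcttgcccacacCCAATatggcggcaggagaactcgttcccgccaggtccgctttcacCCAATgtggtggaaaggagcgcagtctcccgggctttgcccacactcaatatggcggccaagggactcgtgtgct
Espl1, chr15:102296133-102296322, plus strand: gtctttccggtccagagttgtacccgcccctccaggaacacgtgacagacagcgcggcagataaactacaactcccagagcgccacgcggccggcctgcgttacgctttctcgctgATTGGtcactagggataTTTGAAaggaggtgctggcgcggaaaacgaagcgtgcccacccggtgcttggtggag
Bub1, chr2:127831830-127832019, minus strand: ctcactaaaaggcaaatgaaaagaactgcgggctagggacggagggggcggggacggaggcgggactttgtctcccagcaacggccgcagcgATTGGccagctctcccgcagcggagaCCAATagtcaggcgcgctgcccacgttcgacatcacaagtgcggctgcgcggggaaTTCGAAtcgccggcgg
Kif11, chr19:37376222-37376411, plus strand: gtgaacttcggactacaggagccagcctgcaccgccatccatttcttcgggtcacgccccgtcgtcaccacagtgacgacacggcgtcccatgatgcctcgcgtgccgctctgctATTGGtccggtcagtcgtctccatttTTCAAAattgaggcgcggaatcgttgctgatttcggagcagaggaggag
Nuf2, chr1:169531435-169531624, minus strand: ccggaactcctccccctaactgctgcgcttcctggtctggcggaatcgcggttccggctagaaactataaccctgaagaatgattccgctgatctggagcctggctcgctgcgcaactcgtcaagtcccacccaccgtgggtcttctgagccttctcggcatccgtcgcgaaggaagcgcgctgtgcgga
Mki67, chr7:135716350-135716539, minus strand: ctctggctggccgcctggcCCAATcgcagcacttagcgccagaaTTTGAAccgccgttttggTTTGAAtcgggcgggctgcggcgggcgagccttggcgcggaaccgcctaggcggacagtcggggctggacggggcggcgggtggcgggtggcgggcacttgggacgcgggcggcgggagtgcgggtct

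The motifs searched, on both strands, were the CHR (TTTGAA or TTCGAA), the CCAAT box (CCAAT) and an E2F motif (TTTCCCGC, TTTCGCGC, TTTGCCGC or TTTGGCGC). The window searched was longer than the stretch printed, 250 bases before and 50 after the start, and 33 of the 39 measured members had at least 1 such window, 13 of replication (14 windows) and 20 of mitosis. A CHR stood in 75.0% of the mitosis windows (15 of 20) and in 21.4% of the replication windows (3 of 14), beside 19.2% of all 32851 windows of this length in the table. An E2F motif stood in 5.0% of the mitosis windows (1 of 20, that of Cdk1) and in 42.9% of the replication windows (6 of 14), beside 2.26% of all windows. The CCAAT box stood in 75.0% of the mitosis and 71.4% of the replication windows, beside 37.4% of all windows. Espl1 and Kif11 each held a CCAAT box followed by a CHR within 30 bases before the start, and the printed stretch of Mcm5 held 2 overlapping E2F matches. In the stretch of Mki67 both CHR matches lay farther from the start, at -116 and -98, and that of Nuf2 held no match. The searched windows of Mad2l1, Birc5, Nusap1 and Chek1 held no match either. These genes were called higher than in SCR EBs at day 16 (0.96, 0.48, 0.43 and 1.46). No E2F match stood in the windows of Mcm2, Rrm2, Pcna and Cdc45, also called higher, nor in that of Rrm1. Whether the motifs go with the differences between lines was not tested. In 1 window, of Mcm7, an E2F match overlapped a CCAAT box. These matches are descriptions of the letters, not of binding.

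**Figure D1:**
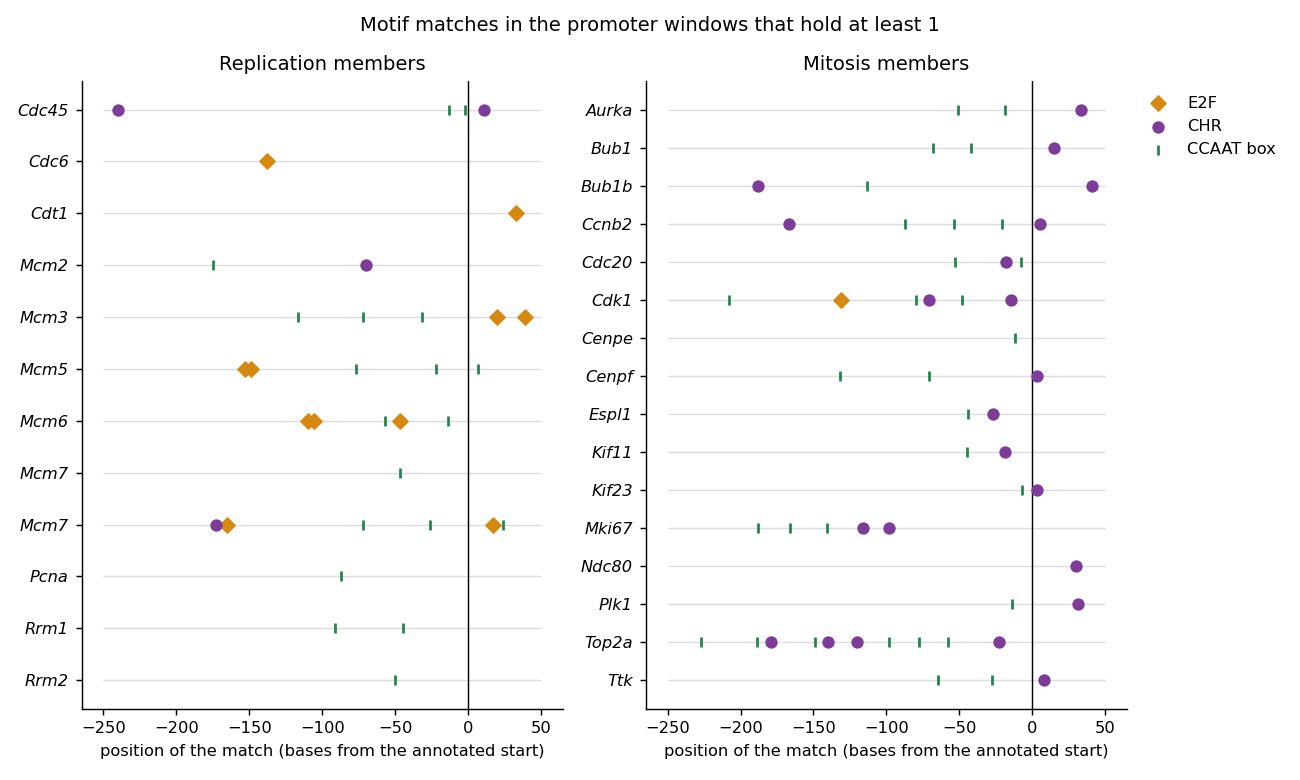
Positions of motif matches in bases from the annotated start (vertical line at 0), for the windows of replication members (left) and mitosis members (right) that hold at least 1. Diamonds are E2F matches, circles CHR matches and vertical ticks CCAAT boxes; CHR matches are spread over 15 of 20 mitosis windows and E2F matches over 6 of 14 replication windows. Mcm7 has 2 windows.

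From ESCs to day 16 nearly all members fell in both control lines, and fewer fell, by less, in the KD-labelled line. In KD-labelled EBs at day 16, 11 of 15 replication members were called lower than in ESCs, with a median log2 difference of -0.46, and 13 of 24 mitosis members, with a median of -0.34; 3 mitosis members were called higher. In SCR EBs 14 replication and 23 mitosis members were called lower, with medians of -1.40 and -1.28. In WT EBs 14 and 23 were called lower as well, with medians of -1.29 and -1.31. A call means an adjusted p under 0.05 in limma (Benjamini-Hochberg), and over all 18193 genes the share called lower was 19.1% in KD-labelled EBs (19.1% higher), 42.7% in SCR EBs and 38.1% in WT EBs, with medians of -0.05, -0.19 and -0.15. Cyclic loess moved the last 2 medians by 0.15 and the share of higher calls among all calls to 52.5% in SCR and 55% in WT, against 40.5% and 42.4% in the values as deposited; 13 and 14 replication and 23 and 23 mitosis members were then called lower in SCR and WT EBs. The members not called lower in the controls were Rrm1, a subunit of ribonucleotide reductase, and Mki67, which coats mitotic chromosomes.

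**Figure D2:**
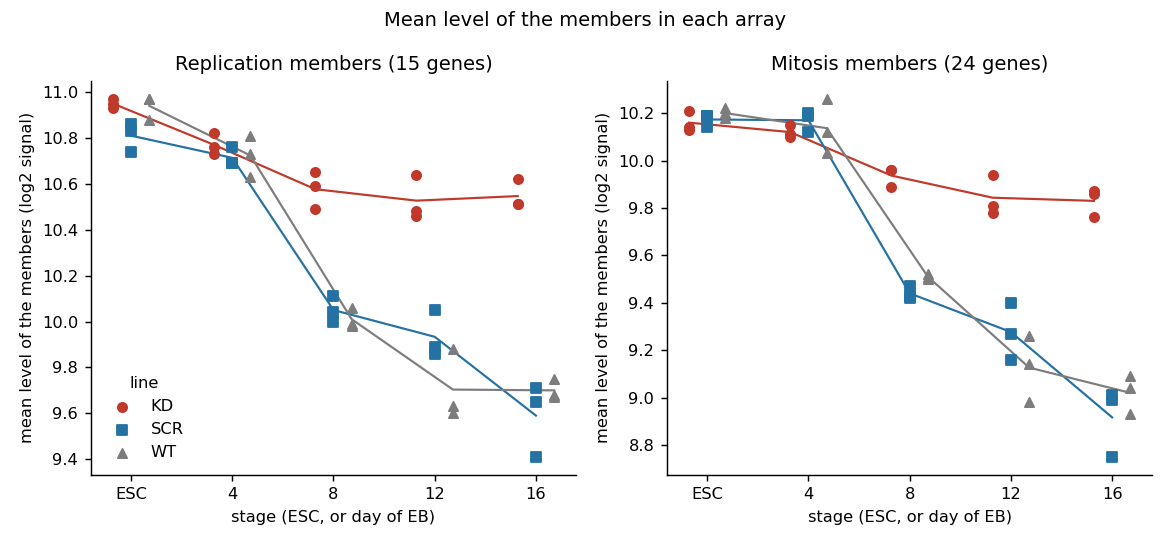
Mean log2 signal over the 15 replication members (left) and the 24 mitosis members (right) in each array, by stage; circles are KD, squares SCR, triangles WT, and lines join the group means. At day 16 the KD arrays lie at 10.51 to 10.62 for replication and 9.76 to 9.87 for mitosis, above all SCR and WT arrays.

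The difference in course was also tested itself. The log2 change between ESCs and day 16 was called larger (less of a fall) in the KD-labelled line than in the SCR line for 12 replication and 20 mitosis members, beside 26.4% of all genes, and smaller for 1, Rrm1, beside 21.3%. Against the WT line it was called larger for 12 replication and 19 mitosis members, beside 23.8% of all genes, and smaller again for Rrm1, beside 21.5%. Both tests share the KD-labelled arrays. The median difference in change from SCR was 0.92 for replication members and 0.97 for mitosis members, against 0.12 for all genes.

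Averaged over the replication members, the signal was 10.95 ± 0.02, 10.77 ± 0.05, 10.58 ± 0.08, 10.53 ± 0.10 and 10.55 ± 0.06 in KD-labelled ESCs and EBs of day 4, 8, 12 and 16 (SD, n = 3 arrays each). It was 10.81 ± 0.06, 10.71 ± 0.04, 10.05 ± 0.06, 9.93 ± 0.10 and 9.59 ± 0.16 over the same stages in SCR samples, and 10.94 ± 0.05, 10.72 ± 0.09, 10.01 ± 0.04, 9.70 ± 0.15 and 9.70 ± 0.04 in WT samples. The line means lay closer together through day 4 than at the later stages. For mitosis members the KD-labelled means were 10.16 ± 0.04, 10.12 ± 0.03, 9.94 ± 0.04, 9.84 ± 0.09 and 9.83 ± 0.06. The SCR means were 10.17 ± 0.03, 10.17 ± 0.04, 9.44 ± 0.03, 9.28 ± 0.12 and 8.92 ± 0.14, and the WT means were 10.20 ± 0.02, 10.14 ± 0.12, 9.51 ± 0.01, 9.13 ± 0.14 and 9.02 ± 0.08.

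At day 4 the members were mixed in all lines. In KD-labelled EBs 3 of 39 were called higher and 8 lower than in ESCs (12.4% and 11.4% of all genes), in SCR EBs 10 and 10 (20.6% and 21.9%), and in WT EBs 5 and 8 (21.4% and 20.3%). Cdt1 and Espl1 were already lower by then in every line. Cdt1 differed from ESCs by -0.66 in KD-labelled EBs, -1.40 in SCR EBs and -1.18 in WT EBs, and Espl1 by -0.69, -1.0 and -0.64. Most members were first called lower in the controls between day 4 and day 8. At day 8, 13 replication and 22 mitosis members were called lower than at day 4 in SCR EBs (21% of all genes), and 13 and 23 in WT EBs (24% of all genes). In KD-labelled EBs 3 replication and 6 mitosis members were called lower over the same days (5.73% of all genes), with medians of -0.19 and -0.16, against -0.64 and -0.73 in SCR EBs. After day 8 no member was called lower in KD-labelled EBs by limma, either at day 12 against day 8 (0.033% of all genes; 1 replication and 1 mitosis member had an unadjusted p under 0.05) or at day 16 against day 12 (0.423% of all genes; no member had such a p). In WT EBs the fall went on to day 12, with 7 replication and 16 mitosis members called lower than at day 8 (6.03% of all genes), and 0 and 1 were called lower between day 12 and day 16 (3.28%; 0 and 5 had an unadjusted p under 0.05). In SCR EBs 1 and 3 were called lower at day 12 against day 8 (4.56% of all genes), where 3 and 7 had an unadjusted p under 0.05. At day 16 against day 12, 9 and 12 were called lower in SCR EBs (4.48%). The share of higher calls among all calls between day 4 and day 8 was 48.9% in SCR and 45.4% in WT (60.9% and 56.9% with cyclic loess), and between day 12 and day 16 it was 60.7% and 65.6% (49.7% and 53.5% with arrays centred on their medians). Whether these steps differed between SCR and WT was not tested.

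**Figure D3:**
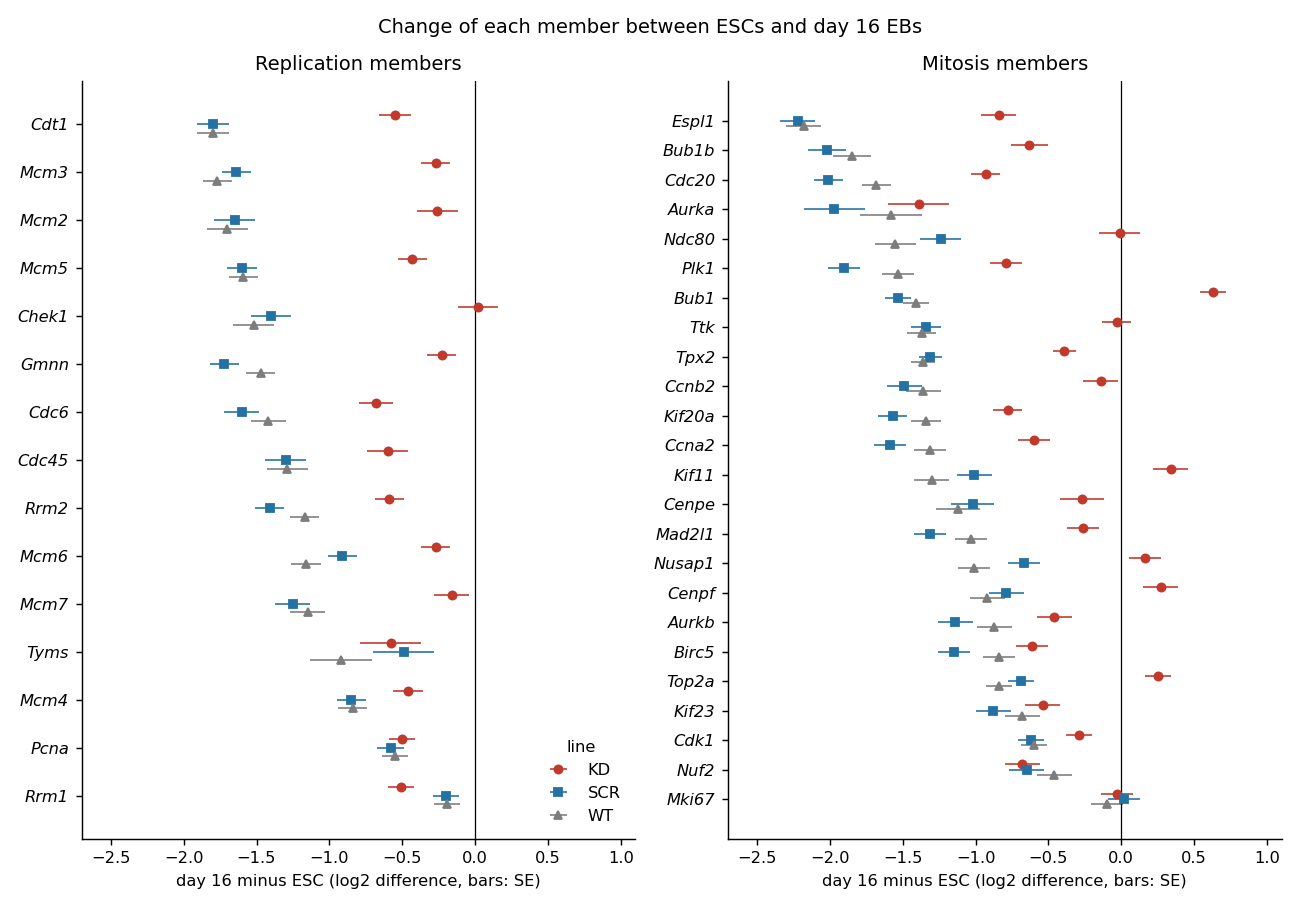
Log2 difference of day 16 EBs minus ESCs for each replication member (left) and mitosis member (right), ordered by the WT value; circles are KD, squares SCR, triangles WT, with standard errors. KD points lie between -1.39 and 0.63, SCR points between -2.22 and 0.02 and WT points between -2.18 and -0.10.

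Set against SCR at each stage, the members turned from mixed to mostly higher in the KD-labelled line. In ESCs 4 replication members were called higher and 1 lower, and 1 mitosis member higher and 2 lower, beside 12.3% of all genes higher and 11.3% lower. At day 4 the counts were 3 and 3 for replication and 3 and 6 for mitosis, beside 22.6% and 19.9% of all genes. Up to day 4 the calls thus went in both directions. At day 8, 10 replication members were called higher and 2 lower, and 17 mitosis members higher and 1 lower (28% and 24.7% of all genes), and at day 12 the counts were 11 and 2, and 19 and 1 (31% and 24.6%). At day 16, 12 replication members were called higher and none lower, and 22 mitosis members higher and 1 lower, beside 39.8% and 26.8% of all genes. The median difference at day 16 was 1.09 for replication and 0.90 for mitosis, against 0.17 over all genes, and 9 members of each group differed by at least 2-fold.

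Against WT the counts in KD-labelled ESCs were 4 of 15 replication and 6 of 24 mitosis members called in either direction (18.4% of all genes), and 6 and 8 at day 4 (39.1%). At day 8, 12 replication and 16 mitosis members were called higher and 2 and 1 lower (26% and 23.9% of all genes). At day 12 the counts were 13 and 21 higher and 0 and 1 lower (27.1% and 23.6%), and at day 16 they were again 13 and 21 higher and 0 and 1 lower (34.6% and 26.1%). The 2 controls differed from each other in fewer members: 1, 2, 0, 8 and 1 of 39 were called between SCR and WT in ESCs and at day 4, 8, 12 and 16, beside 10.2%, 1.93%, 6.99%, 14.7% and 8.11% of all genes. At day 8, where limma called none, 2 replication and 3 mitosis members had an unadjusted p under 0.05. All 8 at day 12 (Mcm4, Mcm5, Mcm6, Pcna, Top2a, Mki67, Cenpf and Kif11) were higher in SCR EBs, and this count was 14 without the second WT array and 1 without the first.

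Markers of cell types also differed between the lines, and their part in the result was not tested. The pluripotent list was apart earlier than the members: at day 4 its mean was 10.68 in KD-labelled EBs, against 6.68 in SCR EBs and 7.21 in WT EBs, and 7 of its 8 genes were called higher than in SCR, while the members were called in both directions. At day 16 all 8 markers of pluripotent cells (Pou5f1, Nanog, Sox2, Zfp42, Esrrb, Klf2, Klf4 and Tdgf1) were called higher in KD-labelled than in SCR EBs, and the mean over the list was 10.97 to 11.08 in KD-labelled arrays, against 5.79 to 6.57 in SCR arrays and 6.48 to 7.35 in WT arrays. Of 8 cardiac muscle markers 7 were called lower than in SCR EBs, with list means of 5.07 to 5.24, against 10.35 to 10.96 in SCR and 7.39 to 8.66 in WT arrays; all 8 lay below the median gene in KD-labelled EBs. Of 8 mesenchyme markers 7 were called lower, with list means of 5.00 to 5.65, against 11.27 to 11.39 in SCR and 11.60 to 11.76 in WT arrays. Of 8 endoderm and liver markers 5 were called lower and 2 higher (7.11 to 7.48 in KD-labelled arrays, against 10.31 to 10.70 in SCR and 9.93 to 10.14 in WT arrays). The neural list had 6 of 7 lower and 1 higher (4.99 to 5.24, against 7.31 to 8.42 in SCR and 6.83 to 8.17 in WT arrays), and the endothelial list 4 of 5 lower (4.86 to 5.01, against 7.36 to 7.52 and 6.40 to 7.20). At day 16 all 5 measured blood markers lay below the median gene in each line, with 2 called higher than in SCR EBs. Against WT EBs 2 were called higher and 2 lower. At day 8 all 5 were called lower than in SCR EBs, and 4 of 5 at day 12. The blood list mean at day 8 was 4.1 in KD-labelled EBs, against 10.34 in SCR EBs and 10.91 in WT EBs. In bulk EBs, fewer cycling cells and less of the members' RNAs per cell cannot be told apart.

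**Figure D4:**
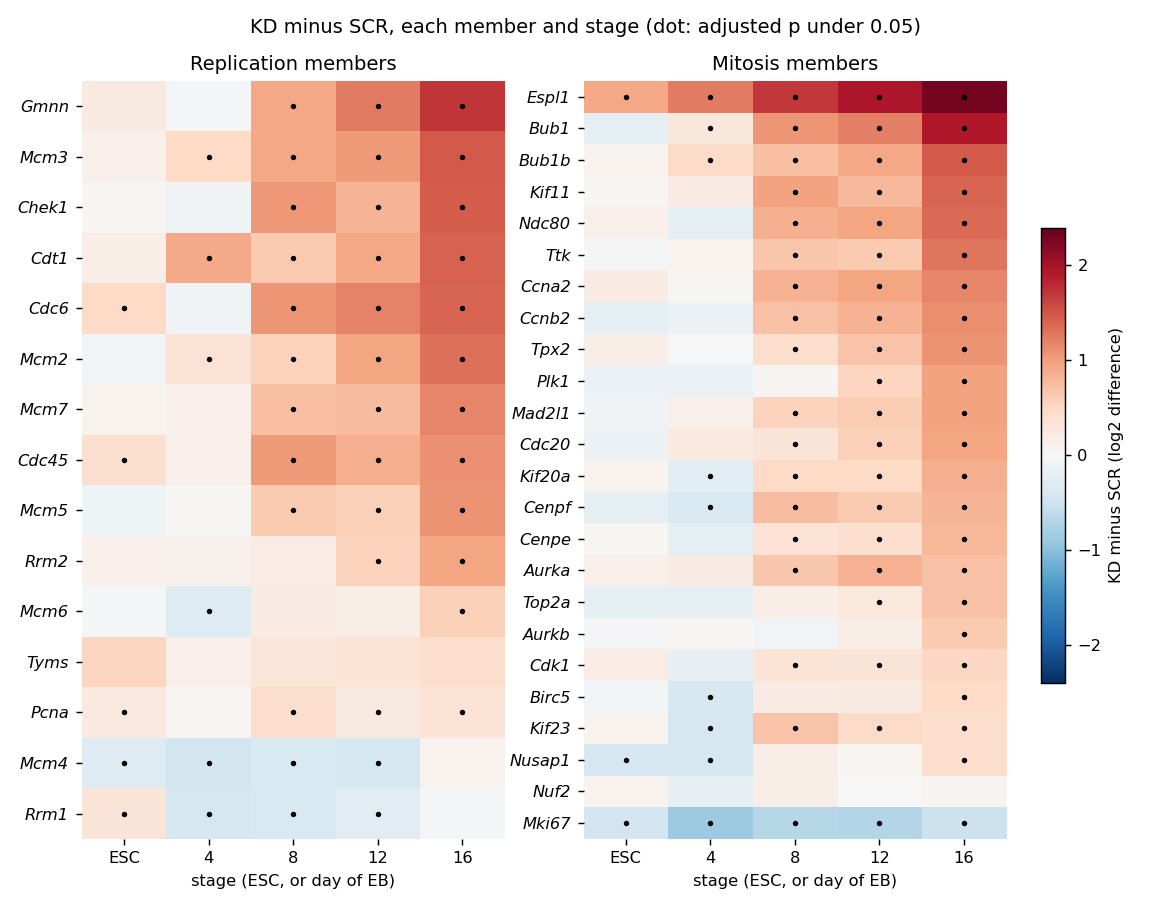
Log2 difference of KD minus SCR for each replication member (left) and mitosis member (right) at each stage, ordered by the day 16 value; red is higher in KD, blue lower, and a dot marks an adjusted p under 0.05. The red deepens from day 8 on for most members, while Mki67 is blue at all 5 stages.

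Of the 15 replication members, Gmnn differed most from SCR at day 16. Gmnn, geminin, which binds Cdt1 and blocks reloading of the helicase, had signals of 10.98, 11.04 and 10.97 in KD-labelled EBs at day 16, against 9.46, 9.26 and 9.15 in SCR EBs and 9.65 in each of the 3 WT arrays. No KD-labelled array came near the controls, and the difference from SCR was 1.71 ± 0.10 (SE; limma, adjusted p = 1.4e-17) and from WT 1.35 ± 0.10 (1.3e-14). In ESCs Gmnn was 11.23, 11.28 and 11.17 in the KD-labelled line, against 10.97, 11.20 and 10.86 in SCR and 11.10, 11.22 and 11.04 in WT, so the ESC groups overlapped. Its change between ESCs and day 16 was 1.49 ± 0.14 larger than in SCR (adjusted p = 1.9e-11). SCR EBs also lay below WT EBs at day 16 in Gmnn (-0.36, adjusted p = 0.011), the 1 member called between the controls at that stage.

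Cdt1, which loads the helicase onto origins, had the largest day 4 difference from SCR of the replication members. At day 4 its signals were 11.67, 11.46 and 11.62 in KD-labelled EBs, against 10.61, 10.64 and 10.80 in SCR EBs and 11.18, 11.20 and 11.02 in WT EBs. The KD-labelled arrays were above both controls, by 0.90 ± 0.11 over SCR (adjusted p = 5.6e-09) and 0.45 over WT, but SCR was itself below WT (-0.45, adjusted p = 0.015). At day 16 the signals were 11.66, 11.65 and 11.79 in KD-labelled EBs, against 10.48, 10.35 and 10.03 in SCR EBs and 10.71, 10.43 and 10.39 in WT EBs. The day 16 difference from SCR was 1.41 ± 0.11 (adjusted p = 4.4e-14). Cdt1 had the largest fall of any replication member in WT between ESCs and day 16 (-1.80 ± 0.11). Cdc6, its partner in loading, was higher than in SCR already in ESCs (0.48 ± 0.12, adjusted p = 0.0037), lay at -0.08 at day 4, and was higher again at day 8 (1.05), day 12 (1.19) and day 16 (1.40).

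The 6 MCM helicase subunits did not move as a block. Mcm3 was 11.11, 11.13 and 11.13 in KD-labelled EBs at day 16, against 9.71, 9.62 and 9.59 in SCR EBs and 9.70, 9.85 and 9.87 in WT EBs. Mcm2 was 10.96, 10.99 and 10.95, against 9.75, 9.76 and 9.40 in SCR EBs and 9.58, 9.49 and 9.93 in WT EBs. Mcm5 was 11.36, 11.50 and 11.35, against 10.40, 10.43 and 10.16 in SCR EBs and 10.37, 10.51 and 10.39 in WT EBs. In these 3 subunits the KD-labelled arrays stood clear of both controls, with differences from SCR of 1.48 ± 0.10, 1.33 ± 0.14 and 1.07 ± 0.10 (limma, adjusted p = 1.7e-15, 1.1e-10 and 9.6e-12). Mcm7 was 1.17 higher and Mcm6 0.58 higher. Mcm4 went the other way at earlier stages: it was lower than in SCR in ESCs (-0.31), at day 4 (-0.45), day 8 (-0.36) and day 12 (-0.43). With the mean of all probe sets the ESC and day 12 calls were lost (-0.37 and -0.27, adjusted p = 0.053 and 0.099), and the ESC call also with only the groups compared (0.095) and without the first SCR array (0.092). Against WT Mcm4 was called lower in ESCs (-0.42), at day 4 (-0.46) and day 8 (-0.37). It was not called against WT at day 12 (-0.12, limma, adjusted p = 0.32), where SCR was itself above WT (0.31, adjusted p = 0.021). At day 16 Mcm4 was 11.52, 11.39 and 11.48 in KD-labelled EBs, against 11.59, 11.42 and 11.15 in SCR EBs and 11.49, 11.40 and 11.60 in WT EBs. These groups overlapped, and the difference from SCR was 0.08 ± 0.10 (adjusted p = 0.48). Mcm6 too was lower at day 4 (-0.31, adjusted p = 0.013; 0.056 without the first KD-labelled array) before it was higher at day 16.

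At the replication fork, Cdc45, the helicase cofactor, was higher than in SCR in ESCs (0.39), at day 8 (1.03), day 12 (0.88) and day 16 (1.09), and lay at 0.13 at day 4. The ESC call was lost with the mean of all probe sets (0.24, adjusted p = 0.077), with only the groups compared (0.054) and without any 1 of 4 arrays, replicates 1 and 3 of KD and 1 and 2 of SCR (0.082 to 0.16). Pcna, the sliding clamp, differed little: it was 12.93, 12.95 and 12.84 in KD-labelled EBs at day 16, against 12.70, 12.60 and 12.45 in SCR EBs and 12.56, 12.55 and 12.69 in WT EBs. All KD-labelled arrays were above all controls, by 0.32 ± 0.09 over SCR (adjusted p = 0.0014) and 0.31 ± 0.09 over WT (0.0026). With cyclic loess the day 16 gap over SCR was 0.16 and not called (adjusted p = 0.086). At day 4 Pcna lay at 0.05 from SCR, with overlapping arrays (adjusted p = 0.73). A gap of 0.24 over SCR was called in ESCs, but not with only the groups compared (adjusted p = 0.18) or without any 1 of the KD-labelled ESC arrays or the third SCR ESC array, and the difference in change between ESCs and day 16 was 0.09 and not called. Chek1, the kinase that answers stalled forks, was 9.76, 10.05 and 9.73 in KD-labelled EBs at day 16, against 8.71, 8.28 and 8.18 in SCR EBs and 8.35, 8.48 and 8.44 in WT EBs. Its KD-labelled arrays were at their ESC level (9.86, 9.81 and 9.82), and the difference from SCR was 1.46 ± 0.14 (adjusted p = 2.0e-11).

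The 2 subunits of ribonucleotide reductase behaved unlike each other. Rrm2, the small subunit made in S phase, was 11.66, 11.54 and 11.61 in KD-labelled EBs at day 16, against 10.71, 10.85 and 10.41 in SCR EBs and 10.79, 10.86 and 10.84 in WT EBs, a gap of 0.95 ± 0.10 over SCR (adjusted p = 7.1e-10). Rrm1, the large subunit, was 10.29, 10.37 and 10.15, against 10.32, 10.34 and 10.20 in SCR EBs and 10.38, 10.39 and 10.41 in WT EBs. The Rrm1 groups overlapped with SCR (-0.02 ± 0.09, adjusted p = 0.88). At day 4 Rrm1 had risen over ESCs in both controls (0.72 ± 0.09 in SCR and 0.52 ± 0.09 in WT), with signals of 10.70, 10.90 and 10.74 in KD-labelled EBs, against 11.24, 11.28 and 11.09 in SCR EBs and 11.01, 11.04 and 11.27 in WT EBs. It was lower than in SCR in KD-labelled EBs at day 4 (-0.42), day 8 (-0.37) and day 12 (-0.27), after being higher in ESCs (0.30). With the mean of all probe sets only the day 4 call held, with 0.19 in ESCs, -0.17 at day 8 and -0.20 at day 12 (adjusted p = 0.25, 0.21 and 0.13). The ESC and day 12 calls were also lost with only the groups compared (0.09 and 0.098) and without 1 of several arrays: replicate 3 of KD or SCR in both, and replicate 1 of KD at day 12. Against WT Rrm1 was called lower at day 4 (-0.33) and day 8 (-0.31). It was not called against WT in ESCs (0.2, limma, adjusted p = 0.14) or at day 12 (-0.18, adjusted p = 0.099). Its change between ESCs and day 16 was -0.31 ± 0.13 against SCR (adjusted p = 0.046) and -0.32 ± 0.13 against WT (0.041), neither of them called when arrays were centred on their medians. Tyms, thymidylate synthase, had a dim probe set, 4.54 to 5.37 in KD-labelled EBs at day 16 against 4.42 to 4.81 in SCR EBs and 4.33 to 4.44 in WT EBs, where the median gene over all arrays lies at 6.21; it was called against WT (0.63, adjusted p = 0.01) and not against SCR (0.43, adjusted p = 0.07; 0.026 with arrays centred on their medians, 0.037 with the replicate block, 0.0086 without the first KD-labelled array and 0.046 without the second SCR array).

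**Figure D5:**
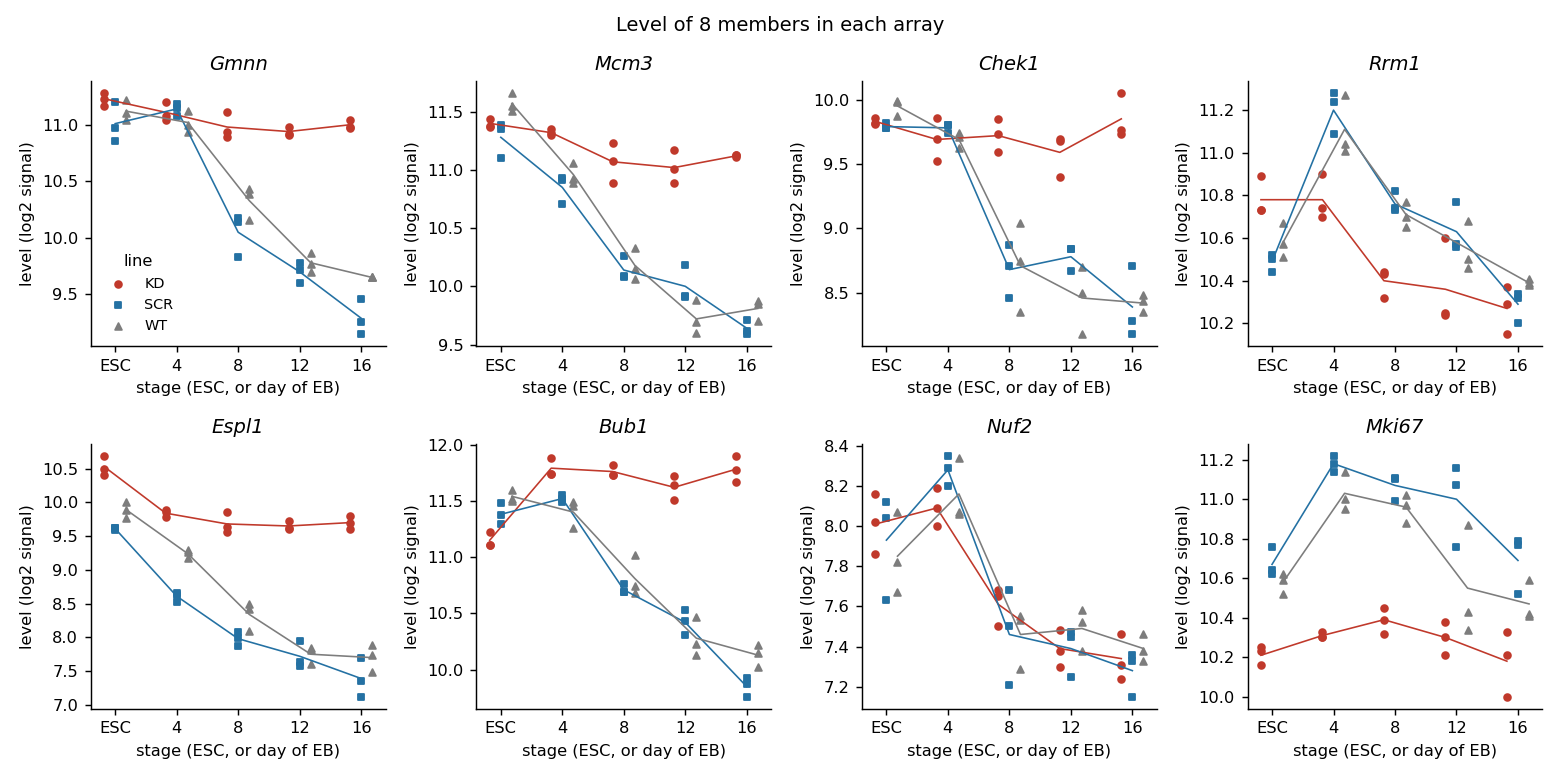
Log2 signal of 8 members in each array by stage: Gmnn, Mcm3, Chek1 and Rrm1 of replication and Espl1, Bub1, Nuf2 and Mki67 of mitosis; circles are KD, squares SCR, triangles WT, and lines join group means. At day 16 Bub1 averages 11.78 in KD EBs, against 9.85 in SCR and 10.13 in WT EBs, while the KD mean of Mki67 is below both controls at every stage.

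Of the mitosis members, Espl1 and Bub1 differed most. Espl1 codes for separase, the protease that cuts the cohesin rings between sister chromatids. It was 9.80, 9.60 and 9.69 in KD-labelled EBs at day 16, against 7.36, 7.70 and 7.12 in SCR EBs and 7.89, 7.48 and 7.74 in WT EBs. The lowest KD-labelled array was above the highest control by more than the spread of any of the groups, and the difference was 2.30 ± 0.12 from SCR (4.94-fold; limma, adjusted p = 3.0e-18) and 1.99 ± 0.12 from WT. Espl1 was the only mitosis member called higher in ESCs: it was 10.41, 10.50 and 10.69 in KD-labelled ESCs, against 9.62, 9.59 and 9.62 in SCR ESCs and 9.88, 9.77 and 10.01 in WT ESCs. The ESC difference was 0.92 ± 0.12 from SCR and 0.65 from WT, and the change between ESCs and day 16 still differed from SCR by 1.38 ± 0.17 (adjusted p = 2.6e-08). Unlike most members, Espl1 fell in the KD-labelled line by day 4 (-0.69 ± 0.12), with no later step called, against -1.0 in SCR and -0.64 in WT at day 4. Its fall by day 16 in WT, -2.18 ± 0.12, was the largest of the mitosis members, and a single probe set reports it.

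Bub1, a kinase of the spindle checkpoint, rose in the KD-labelled line and fell in the controls. At day 16 it was 11.67, 11.90 and 11.77 in KD-labelled EBs, while KD-labelled ESCs had 11.11, 11.11 and 11.22. In the controls at day 16 it was 9.93, 9.87 and 9.76 in SCR EBs and 10.15, 10.02 and 10.22 in WT EBs, and their ESCs had 11.29, 11.37 and 11.48 in SCR and 11.52, 11.50 and 11.60 in WT. The KD-labelled line began below WT (-0.39, called) and at or below SCR (-0.23, not called, though called with the mean of all probe sets, -0.52, with only genes above the median gene and with a trended robust prior) and ended above both. The rise was 0.63 ± 0.09 (adjusted p = 8.5e-07), the difference from SCR at day 16 was 1.93 ± 0.09 (2.2e-19), and the difference in change was 2.16 ± 0.13 from SCR and 2.04 ± 0.13 from WT (7.1e-16 and 3.6e-15). The other 2 members called higher at day 16 than in ESCs in the KD-labelled line were Top2a, the topoisomerase that untangles chromosomes (0.25 ± 0.09, adjusted p = 0.031), and Kif11, the kinesin that pushes spindle poles apart (0.34 ± 0.12, adjusted p = 0.019). With arrays centred on their medians 2 in place of 3 members were called higher. Top2a and Kif11 fell in the controls, with differences of -0.69 in SCR and -0.84 in WT for Top2a and of -1.01 in SCR and -1.30 in WT for Kif11. Like Bub1, Top2a began below WT in KD-labelled ESCs (-0.37, called).

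The other checkpoint and kinetochore members were mostly higher. Bub1b, the checkpoint protein BubR1, was 9.63, 9.63 and 9.44 in KD-labelled EBs at day 16, against 8.16, 8.23 and 7.91 in SCR EBs and 8.46, 8.18 and 8.34 in WT EBs. It stood apart from both controls (1.47 ± 0.13 over SCR, adjusted p = 6.9e-12) and was called higher from day 4 on. Ttk, the Mps1 kinase, was 1.29 higher than in SCR, Mad2l1, the Mad2 checkpoint protein, 0.96 higher, and Ndc80, which ties kinetochores to microtubules, 1.36 higher. The kinetochore motor Cenpe was 0.79 higher and Cenpf, a kinetochore-associated protein, 0.82 higher. Nuf2, the partner of Ndc80 in the same complex, was not. Its signals were 7.31, 7.46 and 7.24 in KD-labelled EBs, against 7.33, 7.36 and 7.15 in SCR EBs and 7.33, 7.38 and 7.46 in WT EBs. The Nuf2 groups overlapped (0.06 ± 0.12, adjusted p = 0.69), it was called at none of the 5 stages against SCR, and it fell between ESCs and day 16 in all 3 lines (-0.68, -0.65 and -0.46 in KD, SCR and WT).

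The 6 measured kinases and cyclins of mitotic entry were all called higher than in SCR at day 16. Cdk1 was 10.93, 11 and 10.85 in KD-labelled EBs at day 16, against 10.47, 10.43 and 10.37 in SCR EBs and 10.51, 10.29 and 10.46 in WT EBs. All KD-labelled arrays were above the controls, by 0.50 ± 0.09 over SCR (adjusted p = 5.5e-06). Its cyclin partners Ccna2 and Ccnb2 were 1.18 and 1.12 higher, Plk1 0.96, Aurka 0.70 and Aurkb 0.63 higher, and Birc5, survivin of the Aurora B complex, 0.48 higher. Of these, Aurka was called with overlapping arrays and was not called against WT (0.42, adjusted p = 0.087), nor against SCR without the third SCR array (0.49, adjusted p = 0.061). Cdc20, which activates the anaphase-promoting complex, was 11.33, 11.15 and 11.34 in KD-labelled EBs, against 10.53, 10.44 and 10.04 in SCR EBs and 10.38, 10.43 and 10.52 in WT EBs, a gap of 0.94 ± 0.10 over SCR (adjusted p = 3.5e-10). Cdc20 also fell in the KD-labelled line between ESCs and day 16 (-0.93), by less than in SCR (-2.01) and WT (-1.68).

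Among spindle and midzone proteins, Kif11 was 9.88, 9.63 and 9.81 in KD-labelled EBs at day 16, against 8.50, 8.32 and 8.32 in SCR EBs and 8.29, 8.33 and 8.30 in WT EBs, a gap of 1.39 ± 0.12 over SCR (adjusted p = 7.4e-13). Tpx2, which activates Aurora A on the spindle, was 1.07 higher than in SCR, and the cytokinesis kinesins Kif20a and Kif23 were 0.87 and 0.43 higher. At day 4 the order was turned for several of them: Kif20a (-0.27), Kif23 (-0.40), Nusap1 (-0.43), Cenpf (-0.36) and Birc5 (-0.38) were called lower than in SCR. The Kif20a call was lost without any 1 of 5 of its 6 arrays (adjusted p = 0.061 to 0.12; it held without the third SCR array), that of Cenpf without the first KD-labelled array (0.055) and that of Kif23 with the mean of all probe sets (0.064). Against WT at day 4, Kif23 (-0.36) and Birc5 (-0.32) were called lower too. Kif20a (-0.15), Nusap1 (-0.19) and Cenpf (-0.07) were not called against WT (limma, adjusted p = 0.29, 0.2 and 0.71). Nusap1 was called lower already in ESCs, against SCR (-0.40, limma, adjusted p = 0.0059) and WT (-0.67, 2.5e-05). Cenpf was called lower than in WT there (-0.36, 0.038). The Nusap1 ESC call against SCR was lost without the third SCR array (0.15), with only the groups compared (0.16) and with the mean of all probe sets (0.06). Against SCR, Nusap1 was not called at day 8 (0.15) or day 12 (0.05). Nusap1, a microtubule bundler, was 10.18, 10.33 and 10.26 in KD-labelled EBs at day 16, against 9.89, 9.90 and 9.70 in SCR EBs and 9.75, 9.73 and 9.81 in WT EBs (0.43 ± 0.11 over SCR, adjusted p = 0.001). A second, dimmer Nusap1 probe set was called lower instead (-0.62, adjusted p = 0.0092), with means of 4.16 in KD-labelled and 4.78 in SCR EBs, and with the mean of both the Nusap1 difference was -0.09 (adjusted p = 0.55).

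Mki67, the source of the Ki-67 antigen that is widely used to stain cycling cells, was lower than in SCR at all 5 stages. It was 10.21, 10.33 and 10 in KD-labelled EBs at day 16, against 10.77, 10.79 and 10.52 in SCR EBs and 10.59, 10.41 and 10.42 in WT EBs. At day 4 it was 10.30, 10.30 and 10.33, against 11.18, 11.14 and 11.22 in SCR EBs and 10.95, 11.14 and 11 in WT EBs. All KD-labelled arrays lay below all SCR arrays at these stages, and the differences in ESCs and at day 4, 8, 12 and 16 were -0.46, -0.87, -0.68, -0.70 and -0.51, each called (limma, adjusted p at day 16 = 7.1e-05). Against WT they were -0.36, -0.72, -0.57, -0.25 and -0.29, each called too. At day 12 the KD-labelled and WT arrays overlapped (limma, adjusted p = 0.047). In the controls Mki67 rose by day 4 (0.51 in SCR and 0.45 in WT) and was back at its ESC level by day 16 (0.02 ± 0.11 and -0.10 ± 0.11). In the KD-labelled line the day 4 change was 0.10 ± 0.11 and not called. A single probe set reports Mki67. Top2a, often used as a proliferation marker as well, was 11.81, 11.95 and 11.77 in KD-labelled EBs at day 16, against 11.19, 11.22 and 11.01 in SCR EBs and 11.29, 11.05 and 11.02 in WT EBs, a gap of 0.70 ± 0.09 over SCR (adjusted p = 4.8e-08). In ESCs Top2a was lower than in WT (-0.37, limma, adjusted p = 0.0042). All KD-labelled arrays lay below SCR in ESCs (-0.24) and at day 4 (-0.22). Neither gap was called (0.058 and 0.059), but both were with only genes above the median gene and with a trended robust prior.

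Probe sets of the same gene mostly had the same sign. The 39 members had 88 probe sets, 13 members with 1 and 26 with more, and of the 49 further probe sets 46 had the sign of the one used for KD minus SCR at day 16. In size they differed for several genes, and 14 of the 49 were not called. For Ccna2, cyclin A2, the second, of like brightness, gave 0.03 (adjusted p = 0.77) where the one used gave 1.18, and for Tpx2 the second brightest gave 0.08 where the one used gave 1.07. Bub1 had a dim second probe set that gave 0.27 (adjusted p = 0.15; means of 4.65 in KD-labelled and 4.38 in SCR EBs) where the one used gave 1.93. For Cenpf the further ones gave 0.26 and 0.39, neither called, where the one used gave 0.82. Dim further probe sets gave 0.34 for Bub1b, 0.40 for Cdt1 and 0.03 for Kif23, where those used gave 1.47, 1.41 and 0.43. A brighter further probe set of each of these genes gave 1.35, 1.71 and 0.46. The sizes thus depend on the probe set for Ccna2, Tpx2, Bub1 and Cenpf. For Bub1b, Cdt1 and Kif23 only the dim probe sets gave smaller sizes.

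Other genes of the same processes, from lists that do not include the members, were set beside them at day 16. Of 46 further replication factors measured, 40 were called higher and 3 lower in KD-labelled EBs when set against SCR EBs, with a median of 0.96, and 40 higher and 4 lower against WT, with a median of 0.83. Over all genes 39.8% were called higher and 26.8% lower than in SCR, with a median of 0.17, and 34.6% and 26.1% against WT. Those with the largest differences from SCR were Orc1, the largest subunit of the origin recognition complex (3.68 ± 0.13), Mcm10, which helps to activate the helicase (2.53 ± 0.11), Pold1, the catalytic subunit of polymerase delta (2.10 ± 0.11), and Rfc5, a clamp loader subunit (1.78 ± 0.09). Of 66 further mitosis factors, 57 were called higher and 4 lower than in SCR, with a median of 0.91, and 56 and 4 against WT, with a median of 0.87. The leading ones were Cdca5, sororin, which protects cohesion (2.68 ± 0.15), the abscission factor Cep55 (2.16 ± 0.12), the centromere protein Cenpm (1.99 ± 0.18) and the kinesin Kif18a (1.96 ± 0.17).

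Transcriptional regulators of the cycle were called in both directions, in shares near those of all genes. Of 24 transcription factors and cofactors of the cycle, among them the E2F, retinoblastoma, MuvB, MYB, FoxM1 and NF-Y families, 11 were called higher and 6 lower than in SCR, with a median of 0.22, and 9 and 5 against WT, with a median of 0.19; over all genes the shares were 39.8% and 26.8%, and 34.6% and 26.1% against WT. The factors named next were picked as those with the largest absolute differences from SCR at day 16 among the called ones, and do not stand for the list. Mybl2, the MYB protein that joins MuvB on mitosis genes, averaged 9.84 in KD-labelled EBs at day 16, against 4.69 in SCR EBs and 5.22 in WT EBs. This was a difference of 5.15 ± 0.23 from SCR and 4.62 ± 0.23 from WT (limma, adjusted p = 3.5e-20 and 1.1e-18). Day 16 minus ESCs was -4.51 for Mybl2 in SCR and -4.59 in WT, and its difference in the KD-labelled line was -0.21 ± 0.23 (adjusted p = 0.52). Its relative Mybl1 was 1.99 ± 0.18 higher than in SCR, the NF-Y subunit Nfyb 1.14 ± 0.10 higher, and Rbl2, the pocket protein p130 of resting cells, was -1.35 ± 0.20, lower.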

How the data were processed

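RNA of 45 samples was hybridised to Affymetrix mouse 3' arrays. The values used are the deposited log2 signals of 45037 probe sets, processed by the authors with RMA, Partek 6.6 and Affymetrix Expression Console per the submitters' processing notes, which give these tools no role or order. Signals ran between 1.82 and 14.26, array medians between 5.02 and 5.18; 3 arrays a group limit the precision. Samples were grouped by title; array 1 of day 8 is tagged as ESCs in another field in all 3 lines and was kept with day 8. SCR titles number arrays 4 to 6, so replicate numbers came from the source names.

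Probe sets with 1 gene symbol in the platform annotation (34945; 932 had several and 9160 no listed gene) gave 18193 genes, each by its brightest probe set over all arrays, with no filter on level. All arrays entered 1 linear model with a mean per group (limma 3.58.1 in R 4.3.3, with 30 residual and 5.17 prior degrees of freedom), with Benjamini-Hochberg adjustment over all genes within each comparison. The model was tested on simulated data with independent noise and changes planted in few genes. Far more genes were called here, so that test does not cover this setting. Promoters were searched with Python 3.11.15 and pandas 2.3.3. The members, lists and tests were chosen with earlier results of these data known. Members with full values were set by a rule: 12 fixed genes (11 measured), the largest and smallest KD minus SCR differences at day 16, the largest falls in WT, and members opposite to their group. Markers were chosen as lists of cell types. Alternatives were median centring, cyclic loess, the mean of all probe sets, a filter on dim genes, a replicate block, a trended robust prior, only the groups compared, and leaving out each array.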

Additional observations from a re-analysis of the deposited data

Results flagged for a closer look

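The course between ESCs and day 16 differed between the lines by a test of the difference itself (limma contrasts of changes). For 32 of 39 members the change was called higher in KD than in SCR (26.4% of all genes) and for 1 lower (21.3%). Against WT the counts were 31 and 1 (23.8% and 21.5% of all genes). Among the members named, the difference in change from SCR was 2.16 ± 0.13 for Bub1, 1.49 ± 0.14 for Gmnn and 1.38 ± 0.17 for Espl1 (SE, log2). For Rrm1 it was -0.31 ± 0.13, which was not called when arrays were centred on their medians.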

How the results depend on the processing

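Of 28 counts of called members, those of KD-labelled against SCR and WT EBs at day 4, 8, 12 and 16, of day 16 against ESCs and of the differences in change stayed within 1.5 times under every alternative. The counts in ESCs and between the controls are small and moved. Replication members called in KD-labelled against SCR ESCs (5) were 3 with the mean of all probe sets, 2 with only the groups compared and 2 to 6 with an array left out; mitosis members (3) were 5 with the filter on dim genes and 5 with the trended robust prior. Members called in KD-labelled against WT ESCs (10) were 4 with only the groups compared and 5 to 12 with an array left out. Between SCR and WT in ESCs (1) the count was 2 with cyclic loess, 2 with the dim filter, 2 with the replicate block, 2 with the trended prior, 0 with only the groups compared and 0 to 3 with an array left out. At day 4 (2) it was 1 with the mean of probe sets, 1 with only the groups compared and 1 to 2 with an array left out. At day 8 (0) it was 2 when centred on medians, 3 with the dim filter, 1 with the trended prior and 0 to 1 with an array left out. At day 12 (8) it was 5 when centred, 5 with the mean of probe sets, 0 with only the groups compared and 1 to 14 with an array left out. At day 16 (1) it was 2 when centred, 2 with the mean of probe sets, 2 with the trended prior, 0 with only the groups compared and 0 to 3 with an array left out. The cause of these moves was not tested.

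With the mean of all probe sets, 4 differences between KD-labelled and SCR EBs turned: Bub1 at day 4 to -0.17, Ccna2 at day 4 to -0.23, and Nusap1 at day 12 to -0.43 and at day 16 to -0.09. Cyclic loess moved the median of all genes by -0.12 in KD minus SCR at day 16 and by 0.15 in day 16 minus ESCs of SCR and of WT; calls higher in KD were 59.7% of calls, 65.8% when centred and 50.5% with loess. The replicate block gave 13 replication and 23 mitosis members called at day 16, and 25 of 45 arrays correlated best with their own number, a hint from the data and not the design; deviations of same-numbered arrays correlated with a median r of 0.031 (-0.392 to 0.567), so the numbers were not taken as pairs. Dim probe sets (Tyms, the second Nusap1) are limited by their low signal.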
